A study of Sus scrofa with 61 samples.

Results

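ASNS encodes asparagine synthetase, the enzyme that makes asparagine from aspartate with glutamine as the nitrogen donor. ALDH18A1 encodes delta-1-pyrroline-5-carboxylate synthase, the mitochondrial enzyme that turns glutamate into the precursor of proline and ornithine. The 2 genes were chosen by symbol, as every probe-set that the platform annotation maps to either one, which gave 2 probe-sets of 23999 and 2 genes of 6765 symbols. They had been picked because their signal differed between the developmental stages of these same arrays, so their differences between stages are given as a description, with no test. Their co-variation between animals of 1 stage is not fixed by differences between stages and was tested. The genes were, however, chosen with earlier results of these data known.

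Both enzymes make amino acids that an animal can also take from its diet. In mammals their transcription is raised by ATF4, a transcription factor whose translation increases when kinases phosphorylate the initiation factor eIF2, for example when uncharged tRNAs accumulate or when unfolded protein builds up in the endoplasmic reticulum (ER). ATF4 is also known to raise genes of serine synthesis, amino acid carriers and aminoacyl-tRNA synthetases.

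Liver RNA of German Landrace offspring was hybridised to 61 Affymetrix Porcine Genome Arrays, with 1 animal per array. All mothers had received the gestational low protein diet (LP), so every group carries that exposure, and offspring of the adequate protein diet were not analysed here. The groups are fetuses of 94 days post conception (dpc, n = 16), newborn piglets of 1 day post natum (dpn, n = 14), pigs at weaning on 28 dpn (n = 15) and young adults of 188 dpn (n = 16). Development was compared in period I (94 dpc to 1 dpn), period II (1 dpn to 28 dpn) and period III (28 dpn to 188 dpn).

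Fetuses were taken by Caesarean section in a separate experiment, so in period I the experiment and the stage cannot be told apart. Piglets kept beyond birth were cross-fostered to sows that had not been on the experimental diet, and male piglets were castrated. An overnight fast is described at 28 dpn and 188 dpn and none at 1 dpn, so feeding state and stage cannot be told apart in period II. Piglets suckled until weaning at 28 dpn and then had standard diets, so feed and stage cannot be told apart in period III. The animals of a stage were chosen as pairs of siblings, at 94 dpc and 1 dpn the light and the heavy one of a litter. Piglets of a litter were divided between 1 dpn, 28 dpn and 188 dpn, so these stages can share litters. The labels do not identify siblings, sex or mother, so animals were treated as independent. Where siblings resemble each other, the p-values of limma and of the permutations may be too small, to an extent that could not be assessed.

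All 10 hepatocyte markers examined, among them ALB and TTR, lay above the array median at every stage, as the tissue label states. The array median was between 95.1 and 178, and its median per stage declined from 167 in the fetuses through 150.4 and 118 to 102 in the adults, while the trimmed mean was held equal by the authors' scaling. In 9 arrays a control gene's signal at its 3' end relative to its 5' end, which reflects how intact the RNA was, stood apart from the stage, and results were also computed without them. In bulk tissue, fewer cells of a type and less RNA per cell cannot be told apart.

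ASNS was represented by 1 probe-set (NCBI gene 100312961). Its signal intensity lay between 7454 and 13695 in the fetuses, with a median of 9985, and between 5733 and 13466 in the piglets at 1 dpn, with a median of 7528. At 28 dpn it lay between 273 and 2074 with a median of 611, and at 188 dpn between 132 and 323 with a median of 242. ASNS was therefore among the bright transcripts of the liver around birth, with a median 58.9 times the array median at 94 dpc, and near the middle of the array in adults, with a median 2.11 times the array median. No animal of any stage lay below its array median.

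Expressed on the log2 scale, mean ASNS was 13.27 ± 0.31 in the fetuses (SD, n = 16) and 12.91 ± 0.34 in the newborns (n = 14). It was 9.42 ± 0.96 at weaning (n = 15) and 7.84 ± 0.31 in the adults (n = 16). In period I the later stage was lower by 1.28-fold (log2 difference -0.36, SE 0.12), and the stages overlapped, with 7 of 14 piglets above the lowest fetus. In period II it was lower by 11.3-fold (-3.49, SE 0.26). Every pig at 28 dpn lay below every piglet at 1 dpn, the lowest piglet being 2.76 times the highest weaner. In period III ASNS was lower by a further 3.00-fold (-1.59, SE 0.26), and 2 of 16 adults lay above the lowest pig at 28 dpn. From the fetuses to the adults the ratio was 43.4-fold (-5.44, SE 0.11).

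ALDH18A1 was also represented by 1 probe-set (NCBI gene 100151977). Its signal lay between 5952 and 9275 at 94 dpc (median 7385) and between 4548 and 8315 at 1 dpn (median 6182). It lay between 718 and 3158 at 28 dpn (median 1636) and between 174 and 517 at 188 dpn (median 326). The medians were 45.0, 39.8, 13.7 and 3.24 times the array median in the order of the stages, and no animal lay below its array median. The order of the stages was the same as for ASNS, with the fetuses and newborns close together and the adults lowest.

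Mean log2 signal of ALDH18A1 was 12.86 ± 0.18 in the fetuses (SD), 12.58 ± 0.22 in the newborns, 10.68 ± 0.59 at weaning and 8.33 ± 0.40 in the adults, over the same animals. The difference in period I was -0.28 (SE 0.07, 1.22-fold), with 8 of 14 piglets above the lowest fetus. That in period II was -1.89 (SE 0.16, 3.72-fold) and that in period III -2.35 (SE 0.18, 5.11-fold). In both later periods the stages did not overlap. The lowest piglet at 1 dpn was 1.44 times the highest pig at 28 dpn, and the lowest pig at 28 dpn was 1.39 times the highest adult. From the fetuses to the adults the ratio was 23.1-fold (-4.53, SE 0.11). On the log2 scale ASNS thus had its largest step before 28 dpn and ALDH18A1 its largest after it, a contrast that was not tested. After quantile normalization the ALDH18A1 steps lay closer together, at -1.99 in period II and -2.12 in period III.

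**Figure D1:**
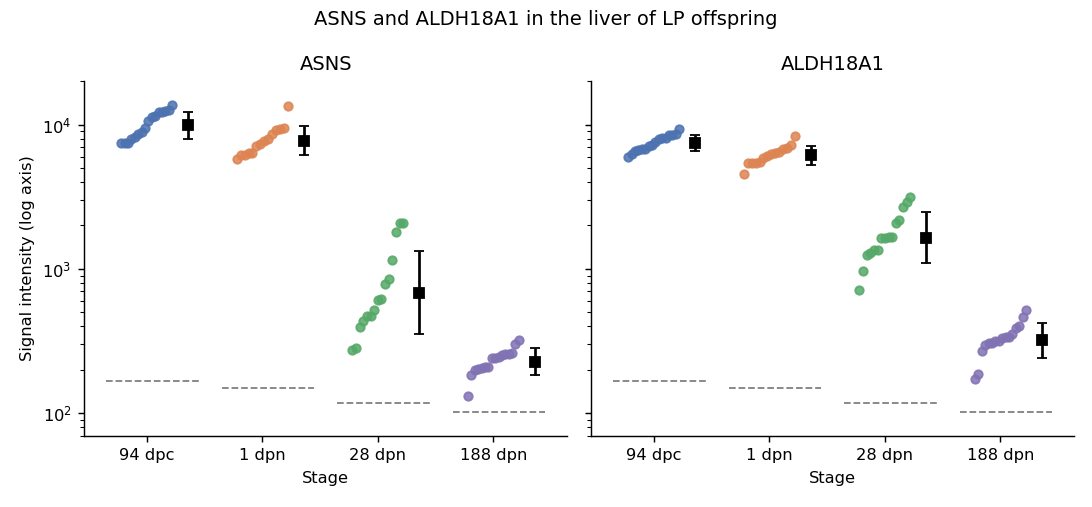
Signal intensity (log axis) of ASNS and ALDH18A1 in each animal by stage, with animals of a stage spread sideways by rank. Black squares are geometric means with bars of 1 SD on the log2 scale, and dashed lines are the median of the array medians; both genes lay near the top of the plot at 94 dpc and 1 dpn and closest to the dashed line at 188 dpn.

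Of all probe-sets tested, 5.8% had every animal at 28 dpn below every animal at 1 dpn in period II, and 0.855% had every adult below every pig at 28 dpn in period III. A difference at least as low as that of ASNS was found for 41 of 12146 probe-sets (0.338%) in period II and 124 of 10992 (1.13%) in period III. For ALDH18A1 the counts were 390 (3.21%) in period II and 29 (0.264%) in period III. In period I, 37.9% and 42.8% of 12257 probe-sets had differences as low as those of ASNS and ALDH18A1. These ranks describe values that the choice of the genes used. ALDH18A1 did not pass the SD filter of the fit in period I, its SD over both stages being 0.244.

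The spread between animals was widest at 28 dpn for both genes. The highest ASNS signal there was 7.60 times the lowest, against 1.84 in the fetuses, 2.35 in the newborns and 2.45 in the adults. For ALDH18A1 the ratio was 4.40 at 28 dpn, against 1.56, 1.83 and 2.98. At 28 dpn the SD of ASNS exceeded that of 98.8% of the 11614 probe-sets above the array median and the SD of ALDH18A1 that of 92.5%, while at 94 dpc these shares were 50.4% and 8.81%. Neither the difference in spread between stages nor its cause was tested.

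The highest ASNS signals at 28 dpn were 2074 in animal 33, 2066 in animal 35 and 1797 in animal 44, followed by 1156 in animal 31. The same first 3 animals held ranks 2, 4 and 3 for ALDH18A1, with signals of 2908, 2174 and 2687. The highest ALDH18A1 signal, 3158, was in animal 34, where ASNS was 782 and ranked 6. Animal 42 was low in both, with an ASNS signal of 284 and an ALDH18A1 signal of 962, each at rank 14 of 15. Animal 31 combined the fourth highest ASNS with an ALDH18A1 signal of 1295 at rank 12.

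Animals high in ASNS for their stage tended to be high in ALDH18A1. Over all 61 deviations from the stage means, Pearson's r was 0.46 (p = 0.00721, two-sided permutation test with 100000 permutations within stages) and Spearman's rho 0.37 (p = 0.00786). It was 0.37 without the 2 animals farthest from the ASNS median. Because the spread at 28 dpn was widest, that stage weighs most. With each deviation divided by the SD of its stage, r was 0.27 (permutation p = 0.0435).

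Within stages, r was 0.32 in the fetuses, 0.12 in the newborns, 0.66 at 28 dpn and -0.030 in the adults. Only the value at 28 dpn passed when adjusted over the 4 stages (permutation p = 0.00787, adjusted p = 0.0315), and its rho of 0.59 did not (p = 0.0228, adjusted p = 0.0910). The adjusted p at the other stages was 0.447, 0.909 and 0.910. At 28 dpn r was 0.56 without the 2 animals farthest from the ASNS median. Without animal 33 it was 0.58 (adjusted permutation p = 0.112), without animal 42 0.60 (adjusted p = 0.0880) and without animal 44 0.60 (adjusted p = 0.0882), so the call rested on each of these animals. Whether r differed between stages was not tested.

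**Figure D2:**
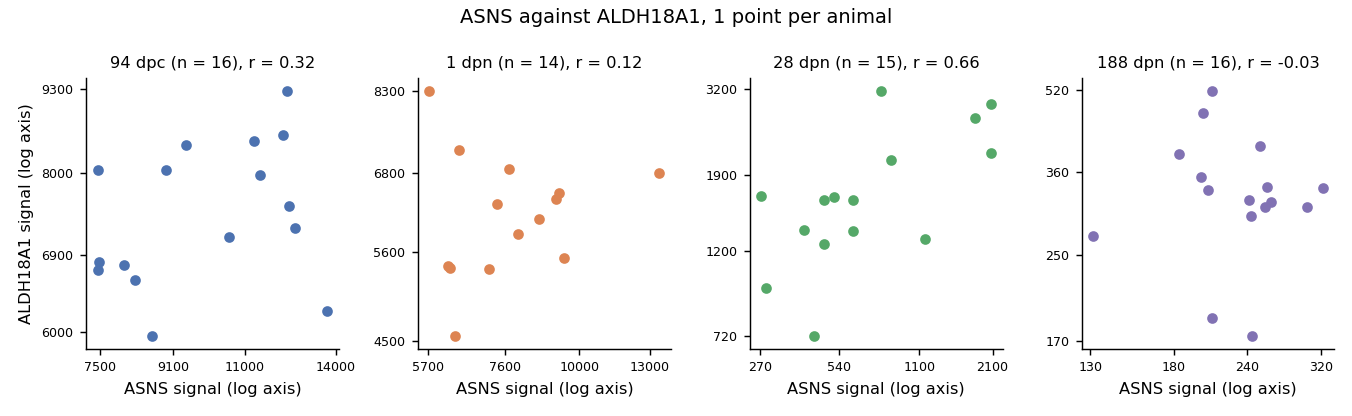
Signal of ASNS (horizontal, log axis) against ALDH18A1 (vertical, log axis), 1 point per animal and 1 panel per stage, with the axes scaled to each stage. The points at 28 dpn rise together (r = 0.66, n = 15), and the other panels show wider scatter, with r of 0.32, 0.12 and -0.030.

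Among genes with 1 symbol and a mean above the array median, the 5 whose log2 signal was most like that of ASNS over the 61 arrays were MAGED1 (r = 0.97), AFP, PEG10, ARHGEF6 and ALDH18A1 (r = 0.95). AFP encodes alpha-fetoprotein, the albumin-like plasma protein of the fetal liver. For ALDH18A1 they were ARHGEF6 (r = 0.96), FNTA, ASNS, SNRPN and AFP (r = 0.94). These correlations are across stages and mainly repeat the difference between young and old livers. The median r of all 5000 genes was 0.11 with ASNS and 0.12 with ALDH18A1.

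Once the stage means were removed, the order changed. The genes most like ASNS were ATF4 (r = 0.64), GARS, the glycyl-tRNA synthetase (r = 0.57), RCN1, AKTIP and INPP5B (r = 0.50). ALDH18A1 ranked 8 of 5000, and 0.16% of genes had as high an r. For ALDH18A1 the gene most like it was ASNS (r = 0.46), followed by TIPIN, XCR1, DSTN and NR2F1 (r = 0.41). With deviations divided by the SD of each stage, GARS led for ASNS (r = 0.62), and the rank of ALDH18A1 among the genes like ASNS was 300.

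ATF4 itself differed less between stages. Its signal lay between 5578 and 8070 at 94 dpc (median 6622), between 5036 and 9065 at 1 dpn (median 6700), between 4392 and 9337 in the weaners (median 5318) and between 3471 and 5273 in the adults (median 4391). Adjacent stages overlapped, 1 dpn and 28 dpn included, where those of ASNS did not, and every adult lay below every fetus. In limma with stage as the only term, ATF4 fell by 0.24 on the log2 scale in period II (SE 0.12, q = 0.0116) and by 0.43 in period III (SE 0.10, q = 0.000186). It did not pass the SD filter in period I, where the difference was 0.050. The call in period II was lost under 5 alternatives. The difference was -0.21 without the 9 arrays of outlying control genes, -0.20 without the least correlated arrays, and -0.24 as before with Benjamini-Hochberg adjustment or no intensity filter. With the array medians subtracted the sign turned, to 0.11.

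Each of the 2 genes was correlated with 5002 others by their deviations from the stage means. With p adjusted over all of these, 6 genes passed with ASNS, all with positive r (0.12% of those tested), and among 62 pathway genes these were ATF4 (adjusted permutation p = 0.0250) and GARS (adjusted permutation p = 0.0250). Spearman's rho was 0.61 for ATF4 and 0.64 for GARS. Without the 2 animals farthest from the ASNS median, r was 0.62 and 0.55. With ALDH18A1 no gene passed. Unadjusted permutation p was at or below 0.05 for 146 genes of positive and 100 of negative r. That is about the share of the 5002 that this limit would pass if no gene co-varied.

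By stage, r of ASNS with ATF4 was 0.65 in the fetuses, 0.55 in the newborns, 0.85 at 28 dpn and -0.11 in the adults. The corresponding values for GARS were 0.49, 0.49, 0.89 and 0.63. SARS, the seryl-tRNA synthetase, had an r of 0.60, 0.55 and 0.79 with ASNS at the first 3 stages and -0.50 in adults. SLC7A1, a carrier of cationic amino acids, reached its highest r with ASNS, 0.85, at 1 dpn. The r of ASNS with GARS was thus positive at all 4 stages and that with ATF4 and SARS at the first 3. These genes were named for their co-variation with ASNS, so their values by stage are descriptions, and whether r differed between stages was not tested.

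ATF4 has a further, dim probe-set that lay above the array median on 17 arrays, and its r with ASNS was 0.14. The 2 further probe-sets of GARS gave 0.48 and 0.50. That of SARS gave 0.57. The relation of ASNS to GARS and SARS was therefore seen in each of their probe-sets, while that to ATF4 was seen in the bright one. With the probe-sets of each gene averaged, r with ASNS was 0.62 for GARS, 0.59 for SARS and 0.35 for ATF4.

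At 28 dpn alone, a stage singled out after the values were seen, no gene of 5002 passed with either ASNS or ALDH18A1 when p was adjusted over all genes. With an unadjusted permutation p at or below 0.05 there were 195 genes of positive and 154 of negative r for ASNS, and 249 and 184 for ALDH18A1. The values that follow are therefore descriptions over 15 pigs. ASNS had its highest r among the pathway genes with GARS (0.89), ATF4 (0.85), PSPH (0.83), AARS (0.81), SARS (0.79) and MARS (0.79). PSPH makes serine from phosphoserine, and AARS, SARS and MARS charge tRNAs with alanine, serine and methionine. PYCR1, which completes proline synthesis, had 0.74. PPP1R15B, a subunit of the eIF2 phosphatase, had 0.77 in its brightest probe-set, but -0.061 with its probe-sets averaged. Averaging also lowered the r of ASNS with ATF4 to 0.52, with AARS to 0.40 and with GARS to 0.73, while PSPH, SARS, MARS and PYCR1 had 0.83, 0.84, 0.79 and 0.74.

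ALDH18A1 had its highest r at 28 dpn with PSPH (0.85), GARS (0.79), the ER chaperone HYOU1 (0.78) and PPP1R15B (0.76). MTHFD2, a mitochondrial folate enzyme, had 0.70 and PYCR1 0.66. With the probe-sets of each gene averaged, PPP1R15B had 0.11 and GARS 0.52, while PSPH, HYOU1, MTHFD2 and PYCR1 had 0.85, 0.78, 0.70 and 0.66. The lowest values were -0.75 with CEBPD and -0.65 with CEBPB, transcription factors of the acute phase response. For ASNS the lowest were -0.69 with GOT1, the cytosolic aspartate aminotransferase, and -0.68 with SHMT1, a cytosolic enzyme that interconverts serine and glycine. Without the 2 animals farthest from the median of the gene concerned, r was 0.86 for ASNS with GARS and 0.87 with ATF4, and 0.91 for ALDH18A1 with PSPH.

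**Figure D3:**
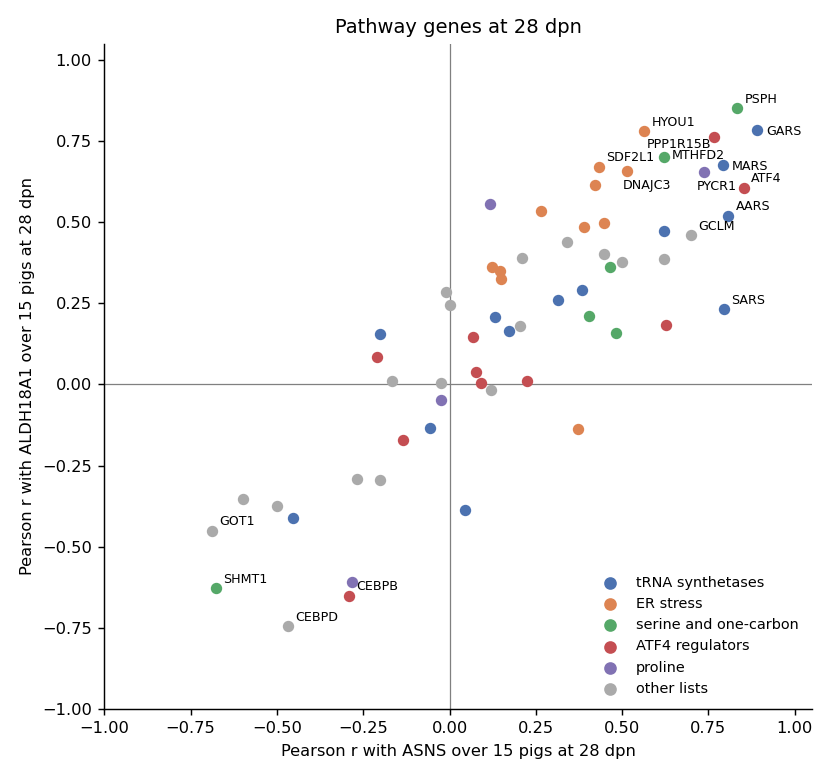
Pearson r of 62 pathway genes with ASNS (horizontal) and with ALDH18A1 (vertical) over the 15 pigs at 28 dpn, coloured by gene list, with names where either r is at least 0.65 in size. GARS, PSPH, PPP1R15B, MARS and PYCR1 lie at the upper right, and SHMT1, GOT1 and CEBPD at the lower left; ASNS and ALDH18A1 share the 15 animals, so the axes are not independent.

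The animals named above carried these values. GARS was 2519 in animal 33, 2443 in animal 35 and 2693 in animal 44, and 1515 in animal 42. PSPH was 1794, 1776 and 1585 in the first 3 and 228 in animal 42. ATF4 was 6586, 8309 and 9337 in the first 3 and 5010 in animal 42. The 3 pigs with most ASNS were thus also the 3 with most GARS and most PSPH.

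**Figure D4:**
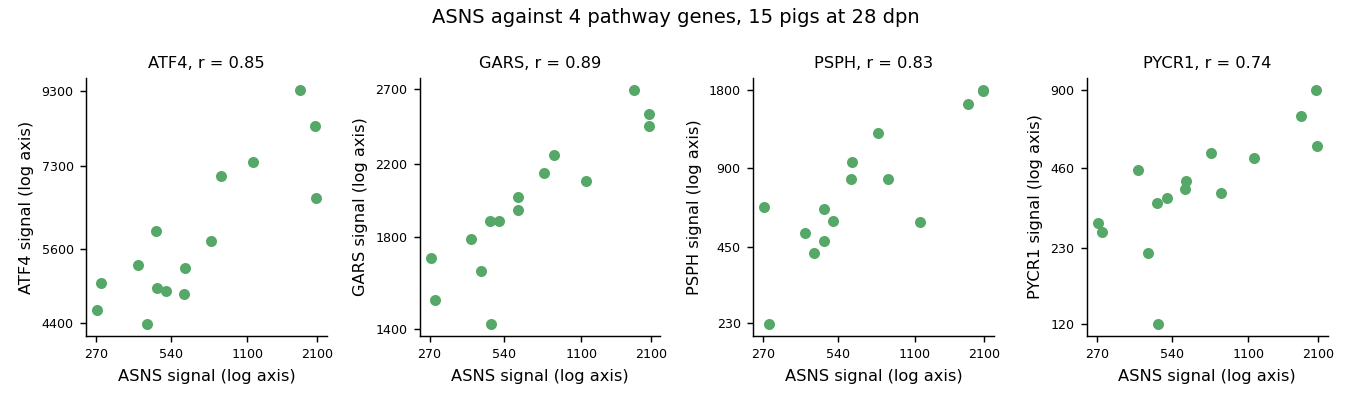
Signal of ASNS (horizontal, log axis) against ATF4, GARS, PSPH and PYCR1 (vertical, log axis) in the 15 pigs at 28 dpn, 1 point per animal. The 3 pigs with ASNS signals from 1797 to 2074 lie at the top for GARS and PSPH, and r was 0.85, 0.89, 0.83 and 0.74 from left to right.

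Technical measures and other cell types were set beside the co-variation. Of 40 correlations of the 2 genes with 3' to 5' differences of GAPDH, beta-actin and EF1A and with the array median, 1 passed, that of ASNS with EF1A at 188 dpn (r = -0.73, permutation p = 0.000840, adjusted p = 0.0336). At 28 dpn the summed signal of 7 Kupffer cell markers, such as CD163 and MARCO, was lower where ALDH18A1 was higher (r = -0.80, permutation p = 0.000440, adjusted p = 0.00704 over 16 correlations). With ASNS it gave -0.49 (adjusted permutation p = 0.241). The sum of 12 proliferation markers gave 0.56 with ALDH18A1 and 0.46 with ASNS, and neither passed. The part of Kupffer cells and of RNA integrity in the values of the 2 genes was not tested.

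Marker sums also differed between stages, for some lists in the direction of the 2 genes and for others against it. The proliferation sum had a median of 5611 at 94 dpc and 9002 at 1 dpn, where both genes were slightly lower. Proliferation markers summed to between 4777 and 20080 at 1 dpn, between 1733 and 10471 at 28 dpn and between 839 and 1509 at 188 dpn, and 9 of 11 tested were called lower in period II (41.4% of all probe-sets) and 11 of 11 in period III (35.7%). Granulocyte markers summed to between 2340 and 23731 at 1 dpn and between 486 and 2041 at 28 dpn, with 6 of 6 tested lower (41.4% of all probe-sets). In period III none of the 3 tested was called. Kupffer cell markers summed to between 15068 and 31083 at 1 dpn and between 51912 and 78506 at 28 dpn, with 5 of 7 tested higher (28.9% of all probe-sets). In period III 6 of these 7 were lower (35.7%). Of T and natural killer cell markers, 7 of 7 tested were higher in period II (28.9%). Of 9 measured, 0 had a mean above the array median at 1 dpn and 7 at 28 dpn. They passed the intensity filter through the stage where they were high, so the filter favoured that direction. This applies to most granulocyte markers in period II (6 of 7 measured above at 1 dpn, 2 at 28 dpn). It also applies to most proliferation markers in period III (11 of 12 at 28 dpn, 2 at 188 dpn). These counts are descriptions. The hepatocyte sum had medians of 584591 at 1 dpn and 447406 at 28 dpn, and 6 of 7 markers tested were lower (41.4% of all probe-sets). The 3' to 5' difference of beta-actin was 1.78 at 1 dpn and 3.94 at 28 dpn on the log2 scale. The part of any of these in the differences of ASNS and ALDH18A1 was not tested.

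The enzymes next to ALDH18A1 and ASNS were then followed through the same periods, to show whether the rest of each route moved with them. Of 109 other genes listed for amino acid synthesis, transport, tRNA charging and the ATF4 response, 64 were measured. In period I, 25 of 57 tested were called higher and 18 lower (all probe-sets: 26.1% and 41.6%). In period II, 11 of 59 were higher and 34 lower (28.9% and 41.4%), and in period III 12 of 57 were higher and 31 lower (18.3% and 35.7%). With the array medians subtracted, the counts were 30 and 13 in period I, 20 and 20 in period II and 15 and 27 in period III. After quantile normalization they were 22 and 21, 11 and 34, and 13 and 28. The split between higher and lower thus moved with the scaling, most in period II with array medians subtracted. In period III more genes were lower than higher under both.

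In the proline route, PYCR1 fell in all 3 periods as ALDH18A1 was lower, with log2 changes of -0.52 (SE 0.22, q = 0.00717), -1.21 (SE 0.24, q = 9.93e-06) and -1.08 (SE 0.23, q = 9.62e-05) in limma. Its median signal declined from 1287 in the fetuses through 985 and 385 to 180.1 in the adults. With the array medians subtracted, the call of PYCR1 in period I was lost. PYCR3, which uses the ornithine-derived precursor, rose by 0.48 in period I, fell by 0.65 in period II and had a difference of 0.19 in period III that did not pass. Its call in period II was lost with the array medians subtracted.

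On the side of proline and ornithine breakdown, OAT rose in all 3 periods and ALDH4A1 in periods I and III. OAT, the ornithine aminotransferase, rose by 0.80, 0.39 and 1.45 in the 3 periods (q = 0.00113, 0.00812 and 6.39e-07). Its call in period II was lost under 3 alternatives that left the size similar, namely without the 9 arrays of outlying control genes (0.34), without the least correlated arrays (0.38) and with the 4 stages in 1 fit (0.39). ALDH4A1, which oxidises the pyrroline-5-carboxylate made from proline, rose by 0.64 in period I and 0.85 in period III (q = 1.21e-07 and 3.25e-07). In period II, where ALDH18A1 was 3.72-fold lower, ALDH4A1 had a difference of -0.055 that did not pass (q = 0.116). In adults its signal lay between 4739 and 11206, against 174 to 517 for ALDH18A1, but probe-sets do not share a scale and these levels were not compared.

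Beside ASNS, the asparaginase ASRGL1 fell, with changes of -0.51, -0.40 and -0.30 in the 3 periods (q = 8.36e-05, 0.000106 and 0.0203), steps far smaller than the -3.49 of ASNS in period II. The calls in periods II and III were lost with the array medians subtracted, and that in period III also after quantile normalization, with Benjamini-Hochberg adjustment and with no intensity filter. ASNSD1, an asparagine synthetase domain protein, rose by 0.58 in period I and fell in periods II and III, with changes of -0.72 and -0.87, the first of which was not called with the array medians subtracted. GOT1, which makes aspartate in the cytosol, rose by 1.08 in period I and 1.27 in period III (q = 1.92e-12 and 3.80e-09). GOT2 and ASPA were measured but did not pass the filters in any period.

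Of the amino donors, GLUL, the glutamine synthetase, rose by 0.98 in period II and fell by 1.57 in period III, where ASNS was lower in both. The rise in period II rested on the brightest probe-set, since the mean of all its probe-sets changed by -0.31. The alanine aminotransferase GPT rose by 0.71 and 1.36 in periods II and III. In the serine route, PSPH fell, with changes of -0.95, -1.71 and -1.99 in the 3 periods (q = 9.56e-09, 3.50e-08 and 1.52e-06). Its median signal was 4689, 2571, 641 and 218 in the order of the stages, the same order as for ASNS and ALDH18A1. PHGDH, which opens the route, fell by 2.22 in period II and rose by 1.00 in period III, and PSAT1 fell by 1.45 and then rose by 0.64 and 0.54. SHMT1 rose by 1.54 and 1.14 in the later periods.

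Among the aminoacyl-tRNA synthetases, 4 of 12 tested were higher and 3 lower in period I (all probe-sets: 26.1% and 41.6%). In period II 11 of 13 were lower (41.4% of all probe-sets) and in period III 8 of 11 (35.7%), with none higher. The largest falls in period II were those of DARS (-1.58), EPRS (-1.57) and NARS (-1.20), which charge tRNAs with aspartate, with glutamate and proline, and with asparagine. NARS fell by a further 0.74 in period III. GARS changed by -0.77 and -0.54 (q = 8.76e-07 and 1.58e-05). The list's median change in period II was -0.47, against -0.14 for all probe-sets tested, and with the array medians subtracted 6 of 11 tested were lower and none was higher.

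Most ER stress genes tested rose in period I, where ASNS and ALDH18A1 were slightly lower. Of 11 measured, 10 were tested and 8 called higher (26.1% of all probe-sets). SDF2L1 was up by 3.54 (SE 0.18, q = 3.00e-17), HYOU1 by 1.95 and PDIA4 by 1.93. CALR, the chaperone calreticulin, and CANX, the chaperone calnexin, were called lower (-0.32 and -0.31), neither of them with the array medians subtracted, and CANX had a difference of 0.14 with its probe-sets averaged. In period II 7 of 9 were lower (41.4% of all probe-sets), led by DNAJC3 (-1.76), and CALR was the 1 called higher, by 1.95. In period III 9 of 10 were lower (35.7% of all probe-sets), led by HSPA5 (-1.24), HSP90B1 (-1.23) and CALR. The median change of the list was 1.07, -0.73 and -0.89 in the 3 periods over the genes tested. Over all probe-sets tested it was -0.16, -0.14 and -0.14.

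Among the regulators of the ATF4 response, 5 of 9 tested were higher and 2 lower in period I (all probe-sets: 26.1% and 41.6%). In each later period 1 of 10 was higher and 4 were lower. The share called lower in the later periods was thus near that of all probe-sets (41.4% and 35.7%). ATF5, a related transcription factor, rose by 1.42 and 0.76 and then fell by 1.67. CEBPG, a partner of ATF4, rose by 0.70 in period I and fell by 1.09 in period II. The kinase EIF2AK2 rose by 1.24 and then changed by -1.46 and -1.51, and its substrate EIF2S1, the alpha subunit of eIF2, fell by 0.96 in period II. CEBPD rose by 1.51, 1.02 and 0.39, and VLDLR, another known ATF4 target, fell by 0.81, rose by 0.85 and fell by 0.65. VEGFA, the remaining listed target that was measured, changed by -0.34, -0.40 and 0.40. In the mean of all probe-sets of a gene, the last changes of CEBPD and VEGFA were not called and VLDLR was not tested in periods II and III. With the array medians subtracted, VEGFA was not called in period I and not tested in period II.

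Of the carriers, SLC7A1 changed by -0.50, -0.39 and -0.54 and SLC1A4 by -0.88, -0.90 and -0.39 in the 3 periods. The call of SLC7A1 in period II and that of SLC1A4 in period III were lost after quantile normalization and with the array medians subtracted, that of SLC1A4 also without the 9 arrays of outlying control genes. SLC3A2, the heavy chain of several amino acid exchangers, rose by 0.63 in period I and fell by 1.20 in period II, and SLC38A1 rose by 1.58 in period II. In the cysteine and glutathione list CTH rose by 1.59, fell by 0.39 and rose by 0.70, and the fall was not called with the array medians subtracted. GCLC fell by 1.15, rose by 0.95 and fell by 0.61, directions that did not hold for periods I and II in the mean of its probe-sets.

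**Figure D5:**
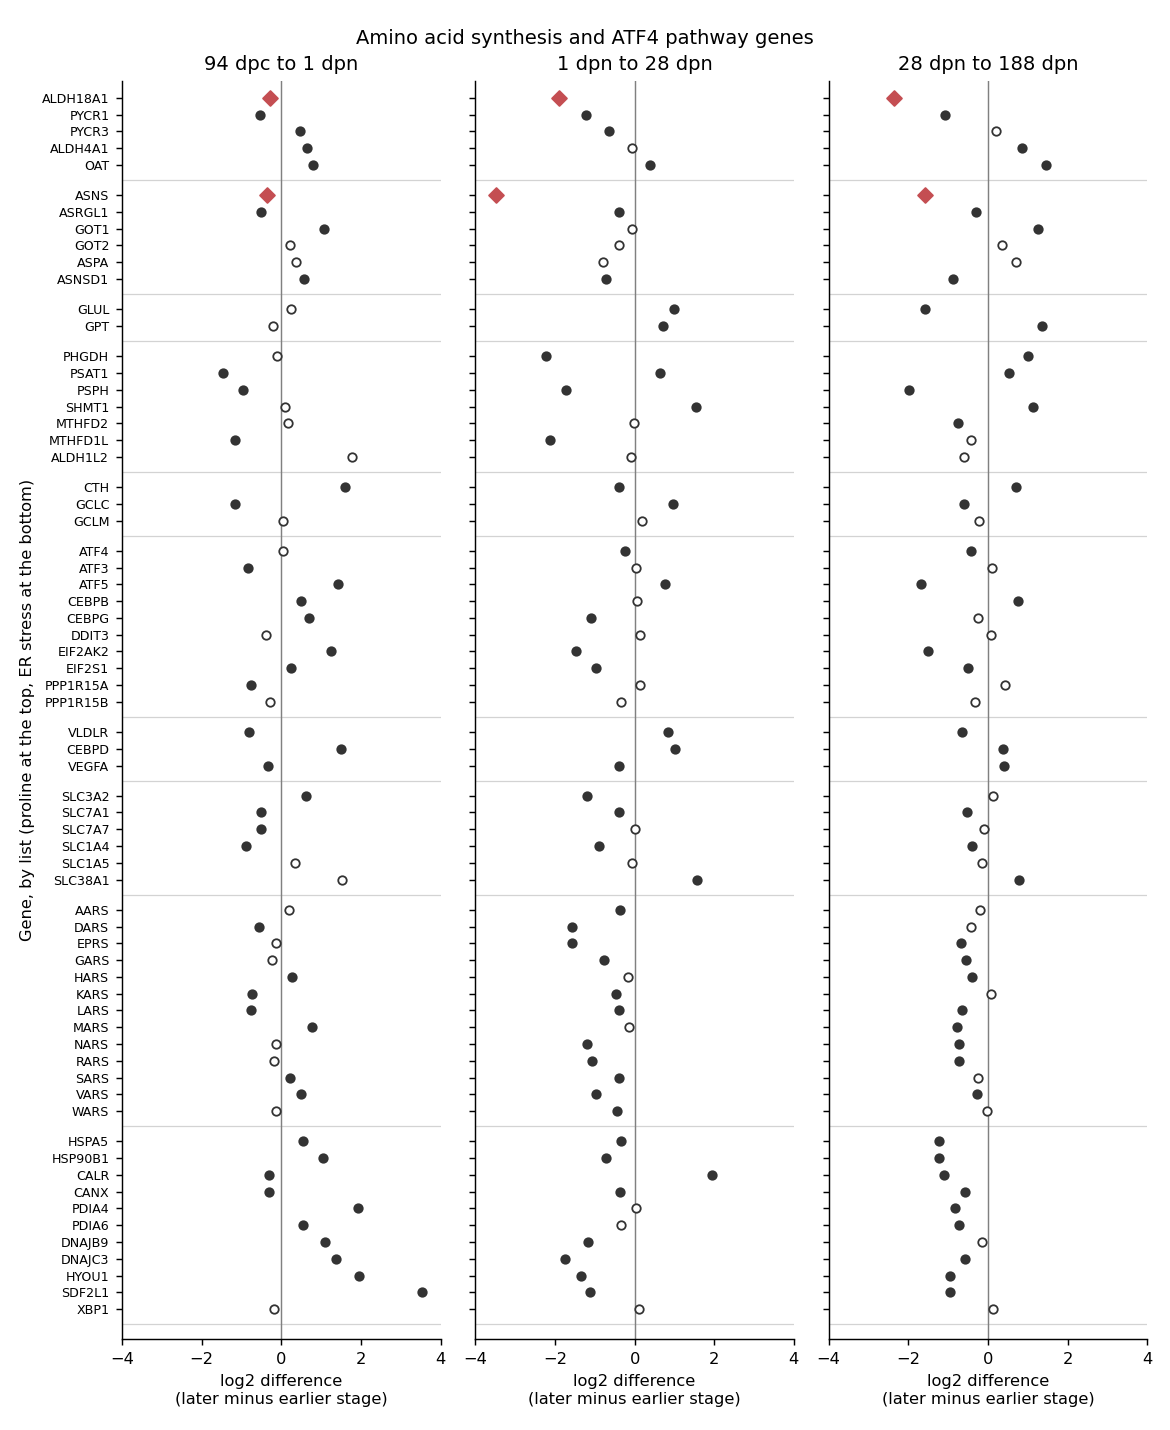
Log2 difference between adjacent stages (later minus earlier) for each measured gene, 1 panel per period, with the lists separated by lines in the order proline, asparagine and aspartate, glutamine and glutamate, serine and one-carbon, transsulfuration, ATF4 regulators, ATF4 targets, carriers, tRNA synthetases and ER stress. Filled circles were called, open circles were not called or not tested, and red diamonds are ASNS and ALDH18A1, which carry no test; in the middle panel ASNS lies farthest to the left, at -3.49.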

How the data were processed

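The authors deposited a linear signal intensity for every probe-set on each array, scaled to a common mean. The submitters' processing notes name GCOS 1.1.1. After trimming 2% of probe-sets at each end the mean was between 500.127 and 500.229 on every array. GC-RMA values and MAS5 present calls described in the methods were not used here. Each array is 1 animal, and the number of arrays limits the precision.

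Signals were taken to log2. Tests were restricted to probe-sets brighter than the array median in 50% or more of 1 stage's animals and with an SD above 0.25 over both stages. Adjacent stages were compared, later minus earlier, with limma 3.58.1 in R 4.3.3 and stage as the only term, and called where both P and Storey's q did not exceed 0.05 (lambda from 0.05 to 0.95, spline with 3 degrees of freedom), two-sided. Adjacent periods share the animals of 1 stage. Of 23999 probe-sets other than 124 controls, 10069 carried 1 symbol, 198 several and 13732 none. Of the probe-sets with 1 symbol, 10060 had it listed in the pig RefSeq table, used for names alone. For genes with several probe-sets the one of highest mean was used. For ASNS and ALDH18A1 the SE is that of a difference of means with unequal variances.

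Correlations were tested with 100000 permutations within stages, two-sided, in Python 3.11.15 with numpy 2.4.6 and scipy 1.17.1, with p adjusted after Benjamini and Hochberg. The smallest p they can give is 1e-05, at which a single gene could not pass when p was adjusted over all genes. Both procedures were tested on simulated data. Figures used matplotlib 3.10.9. Named genes are the measured genes of the proline and asparagine lists and the 5 genes most like each of the 2. Of every other list, they come from up to 3 called genes per direction and period with the largest change. Not all of these are named. GARS, SARS, AARS, MARS, MTHFD2, PPP1R15B and CEBPB, where they fall outside this rule, were named for their correlations after these were seen. The 2 genes and all lists were chosen with earlier results of these data known.

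Alternatives were quantile normalization, subtraction of array medians, a pseudocount of 16, the array median as floor, averaging the probe-sets of each gene, leaving out 9 arrays of outlying 3' to 5' difference or the least correlated array of each stage, Benjamini-Hochberg in place of q, intensity filters of none and the 60th percentile, no SD filter, all 4 stages in 1 fit, and moderation with trend and robust. Added after seeing the data were leaving out each animal at 28 dpn, dividing deviations by the SD, the first 7 of these settings for the correlations with pathway genes, the animals at 28 dpn alone and p adjusted over all genes.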

Additional observations from a re-analysis of the deposited data

How the results depend on the processing

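The 6 stage differences of ASNS and ALDH18A1 kept their direction and moved by less than 1 SD under all 7 alternatives run. Averaging probe-sets and the array median as floor could not change them. Each gene had 1 probe-set, and no animal lay below its array median. The counts of pathway genes called stayed within 1.5 times under all 13 alternatives. In period I the ASNS difference was -0.22 with array medians subtracted and -0.51 after quantile normalization, and that of ALDH18A1 -0.14 and -0.46. Subtracting array medians moved the median change of all probe-sets from -0.16 to 0.02 in period I, from -0.14 to 0.27 in period II and from -0.14 to 0.07 in period III. It also moved the pathway split to 30 higher and 13 lower in period I and 20 and 20 in period II. The correlation of the pair at 188 dpn was 0.0082 under it, against -0.030, neither past the threshold. Leaving out 1 animal at 28 dpn gave an r of 0.58 to 0.72 there, with adjusted permutation p from 0.0144 to 0.112, and 0.39 to 0.49 over all 61 deviations.

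With p adjusted over the 124 pairs of the 2 genes with pathway genes alone, 7 pairs passed over all stages and 22 at 28 dpn. Adjusted over all genes, these were 2 and 0. The 2 adjustments cover different sets, 124 pairs of both genes together against 5002 genes for each of the 2. At 28 dpn 9 pairs passed when the probe-sets of a gene were averaged, and the cause was not tested. No paired analysis was possible because the labels do not identify litters. Siblings could not be modelled, and signals near the array median, such as ASNS in adults, lie closer to background.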
